A study of Mus musculus with 2 samples.

Results

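Krüppel-like factors (KLFs) are zinc-finger transcription factors that bind GC-rich and CACCC elements in DNA. Their transcripts were compared between marginal zone and follicular B cells of the mouse spleen. The members were the genes Klf2, Klf3, Klf4, Klf6, Klf7, Klf9, Klf10 and Klf13, taken through every probe set that the platform's annotation table assigns to one of them alone. This gave 24 probe sets for 8 genes, out of 12393 genes and 20380 probe sets with a single gene among 22626 in the table. The study had 1 Affymetrix array of marginal zone B cells (intermediate CD23, high CD21) and 1 array of follicular B cells (high CD23, intermediate CD21). For each, B cells of 3 wild-type female C57BL/6 mice were enriched with beads against B220, stained and sorted, and the sorted cells were pooled before lysis; the mice's age is not stated, nor is it whether the same animals gave both populations. About 100 ng of total RNA per sample went through a 2-cycle amplification and biotin labelling.

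Marginal zone B cells stay at the edge of the splenic follicles and are early responders to antigens carried in blood, whereas follicular B cells recirculate through blood and lymph. Members of the KLF family share their zinc fingers at the C-terminus and differ in the parts that recruit activators or repressors. In lymphocytes the family is known for holding resting cells out of the cell cycle and for homing: Klf2 supports trafficking receptors of naive cells, and mouse follicular B cells that lack it take on marginal zone features. Klf3 has also been linked to marginal zone B cells by mouse mutants.

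The sequences just upstream of 4 genes are shown because they carry, or lack, motifs searched for the family and its known upstream factors. Klf2 differed most, and Klf9 was the only member of the 7 searched that held the FOXO motif in the exact form GTAAACA. Klf7 had all its measured probe sets lower in marginal zone cells, as did Klf6, whose sequence is not shown. Klf4 differed least. Each sequence is the 250 bases before the gene's annotated start in RefSeq (GRCm38.p6), 5′ to 3′ on the gene's own strand. Capitals mark CACCC on either strand (read as GGGTG on the other strand), the FOXO motif GTAAACA and the MEF2 motif. No capitals means no match to these motifs. The GC box GGGCGG is not marked, and the Klf4 window held 4 matches to it.
Klf2, chr8:72318812-72319061, plus strand: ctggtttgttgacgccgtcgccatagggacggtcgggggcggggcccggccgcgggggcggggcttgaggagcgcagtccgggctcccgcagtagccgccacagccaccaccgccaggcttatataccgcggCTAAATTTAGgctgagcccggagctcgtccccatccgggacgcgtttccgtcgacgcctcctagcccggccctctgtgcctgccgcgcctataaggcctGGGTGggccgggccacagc
Klf9, chr19:23140976-23141225, plus strand: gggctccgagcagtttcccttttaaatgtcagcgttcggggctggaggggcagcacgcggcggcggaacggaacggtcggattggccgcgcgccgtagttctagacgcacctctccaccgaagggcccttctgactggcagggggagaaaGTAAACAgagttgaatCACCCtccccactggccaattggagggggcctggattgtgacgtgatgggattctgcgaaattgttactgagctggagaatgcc
Klf7, chr1:64121390-64121639, minus strand: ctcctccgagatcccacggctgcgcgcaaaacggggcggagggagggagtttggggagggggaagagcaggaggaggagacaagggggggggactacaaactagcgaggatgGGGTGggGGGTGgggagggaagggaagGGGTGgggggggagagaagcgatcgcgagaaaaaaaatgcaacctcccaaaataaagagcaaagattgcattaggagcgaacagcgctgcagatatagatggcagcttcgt
Klf4, chr4:55532476-55532725, minus strand: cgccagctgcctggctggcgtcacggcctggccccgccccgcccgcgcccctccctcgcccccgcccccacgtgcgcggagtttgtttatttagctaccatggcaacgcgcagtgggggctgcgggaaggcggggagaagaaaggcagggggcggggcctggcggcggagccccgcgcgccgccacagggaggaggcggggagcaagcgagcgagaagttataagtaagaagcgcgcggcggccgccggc

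The RefSeq promoter table held 7 of the 8 members, and Klf10 was the other. The MEF2 motif, the site of myocyte enhancer factors, was in the window of 1 of the 7 members, Klf2, as CTAAATTTAG, 118 to 109 bases before the start. It was in 2.92% of all 32851 windows of the table. The FOXO motif GTAAACA was also in 1 member, Klf9, against 3.17% of all windows. Only this exact form of the FOXO motif was searched, so a variant form in another member would not be counted. CACCC, searched on both strands, was in 5 of the 7 members and in 52.0% of all windows. The GC box GGGCGG was in 6 of the 7, all but Klf9, and in 32.7% of all windows. The members' windows had a GC content of 59.2% to 78.4%, with a median of 71.2%, against a median of 52.4% over all windows, which favours GC-rich motifs. In Klf3 and in Klf13 a CACCC match shared a base with a GGGCGG match. These are matches of letters in a short window and no binding was measured.

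The values are MAS5 intensities, which combine the probes of a probe set into 1 signal. Both arrays were scaled to the same trimmed mean, and signals under a floor of 12.7, the median of all values, were raised to it before a ratio was taken. Ratios are given as log2 of marginal zone over follicular signal, so that negative values mean a lower signal in marginal zone cells. Since each population has 1 array, values carry no error between replicates and no test can be made; a difference of 2-fold serves as the mark of size. A lower signal in a sorted pool can come from fewer cells with the transcript or from less RNA per cell, which cannot be told apart here. Of the B cell marker list, 6 of 7 genes had a probe set of their own and all 6 were measured; 4 were lower and 2 higher in marginal zone cells, with a median log2 ratio of -0.35. As examples, Ms4a1 (CD20) was at 1878 in marginal zone and 1754 in follicular cells, and Cd79b, a chain of the B cell receptor, at 545.9 in marginal zone and 1040 in follicular cells (-0.93). The kinase gene Blk, the 1 gene of the list past 2-fold, was at 392.5 in marginal zone and 178.7 in follicular cells, 2.20-fold higher.

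All 8 KLF genes were measured, and all 8 had the lower signal in marginal zone B cells by their brightest probe set. Only Klf2 differed by at least 2-fold. The median log2 ratio of the 8 genes was -0.31, against -0.03 over all 7695 measured genes. In the background, 4.86% of measured genes had a marginal zone signal at least 2-fold lower and 4.39% one at least 2-fold higher, and 52.2% were lower by any amount. These shares are also the background for the counts of the gene lists below. The count past 2-fold, 1 of 8 genes lower and 0 higher, is too small to set apart from that background. Of the 24 probe sets, 20 exceeded the floor on at least 1 array; 16 of these were lower and 4 higher in marginal zone cells. At the level of probe sets, 2 of 20 were at least 2-fold lower and 0 at least 2-fold higher, against 5.02% and 4.36% of 11671 measured probe sets.

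**Figure D1:**
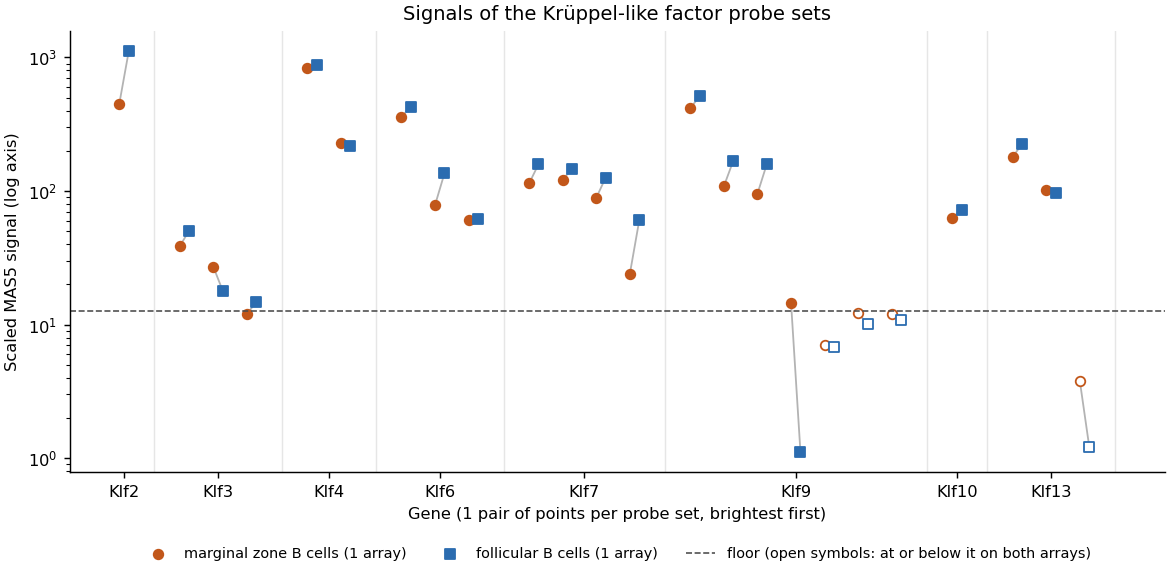
Scaled MAS5 signal (log axis) of each of the 24 KLF probe sets in marginal zone (circles) and follicular B cells (squares), grouped by gene, 1 array each and so without error bars. The dashed line is the floor of 12.7; open symbols are the 4 probe sets at or below it on both arrays. Klf2 sits at 451.9 in marginal zone against 1112 in follicular cells, and the bright Klf4 pair, at 835.2 against 883.8, nearly coincides.

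Klf2, which keeps naive lymphocytes quiescent and recirculating, gave 451.9 in marginal zone B cells, against 1112 in follicular B cells. Both values lie far above the floor, so the ratio does not depend on it. The marginal zone signal was 40.7% of the follicular signal, 2.46-fold lower, a log2 ratio of -1.30. Only 161 of 7695 measured genes had a lower ratio, which puts Klf2 at percentile 2.09. It is represented by a single probe set, so there is no other probe set of the gene to set beside it. For genes with several measured probe sets, the SD of the log2 ratio between probe sets of 1 gene was 0.43, which covers probe behaviour only and not mice, sorts or labelling.

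The genes with the log2 ratio closest to that of Klf2 were Dctn4, a dynactin subunit, at -1.29, Pag1, a membrane adaptor that binds the kinase Csk, at -1.30, and Aif1l at -1.31. They were taken from 1204 genes with 2 or more measured probe sets of 1 sign and a signal of at least 45.7 on 1 array. Likeness here is the distance between single ratios of 2 arrays. The second probe set of each was nearer to 0, at -0.51 for Dctn4, -0.34 for Pag1 and -0.01 for Aif1l.

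Among the 8 members, the other activators are Klf4, Klf6 and Klf7, and these differed less. Klf4, which restrains B cell proliferation and is otherwise known as a pluripotency factor, was at 835.2 in marginal zone and 883.8 in follicular cells by its brighter probe set, a log2 ratio of -0.08. Its other probe set was at 229.6 in marginal zone and 217.5 in follicular cells, a ratio of 0.08. The signs were opposite and both differences were small, so Klf4 was the member with the least difference between the populations. Klf2 and Klf4, both known to be induced through the kinase ERK5 and by FOXO factors, had log2 ratios of -1.30 and -0.08.

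Klf6, an early-response factor of many tissues, was at 360.9 in marginal zone and 424.0 in follicular cells by the brightest probe set, a log2 ratio of -0.23. A second probe set was at 78.5 in marginal zone and 135.4 in follicular cells, a ratio of -0.79. The third was nearly equal, at 60.8 in marginal zone and 61.9 in follicular cells. All 3 had the lower signal in marginal zone cells, but their sizes ran from -0.79 to -0.03.

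Klf7, known for its part in neuronal development, was lower in marginal zone cells by each of its probe sets. Its brightest was at 113.8 in marginal zone and 158.6 in follicular cells, a log2 ratio of -0.48. The next were at 121.8 in marginal zone and 146.4 in follicular cells (-0.27) and at 88.9 in marginal zone and 125.8 in follicular cells (-0.50). The dimmest was at 24.0 in marginal zone and 60.2 in follicular cells, a ratio of -1.33 that passed 2-fold. The mean log2 ratio of the 4 was -0.64. The annotation table lists 1 source sequence for all 4, so they are not independent readings of the transcript.

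**Figure D2:**
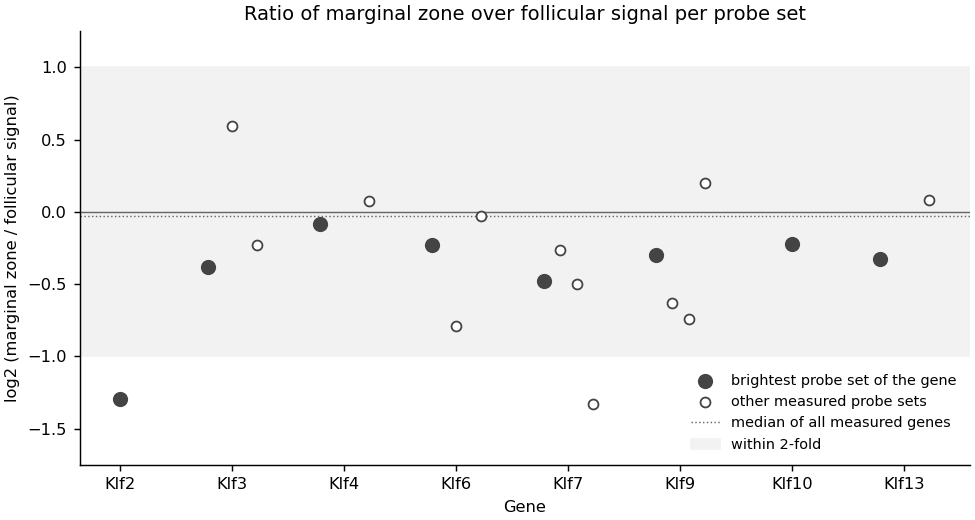
Log2 ratio (marginal zone over follicular B cells) for the 20 measured KLF probe sets, with the brightest probe set of each gene filled and the others open; the grey band is within 2-fold and the dotted line is the median of all measured genes, at -0.03. Klf2 at -1.30 and the dimmest Klf7 probe set at -1.33 lie below the band, and all filled points lie below 0.

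Klf3 represents the branch of the family that recruits the corepressor CtBP. Its brightest probe set was at 38.7 in marginal zone and 50.5 in follicular cells, a log2 ratio of -0.38. A second went the other way, at 27.0 in marginal zone and 17.9 in follicular cells, a ratio of 0.60, and the remaining one was near the floor, at 12.0 in marginal zone and 14.9 in follicular cells. The mean over the 3 was -0.01, so these probe sets give Klf3 no direction. The brightest probe set lay above the floor on both arrays, and only its follicular signal exceeded 45.7, the 75th percentile of all signals. The others were dimmer, and the array's background limits what can be said of them.

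The branch that recruits the corepressor Sin3A was represented by Klf9, Klf10 and Klf13. Klf9, which is induced by glucocorticoids and which restrains proliferation of human naive B cells, was at 416.5 in marginal zone and 512.6 in follicular cells by the brightest probe set, a log2 ratio of -0.30. Others were at 108.6 in marginal zone and 168.3 in follicular cells (-0.63) and at 95.5 in marginal zone and 159.5 in follicular cells (-0.74). These 3 probe sets were all lower in marginal zone cells. Of the remaining 4 of its 7 probe sets, 3 were below the floor on both arrays and 1 only just above it in marginal zone cells, at 14.5 in marginal zone and 1.1 in follicular cells.

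Klf10, induced by transforming growth factor beta (TGF-beta), has 1 probe set, which was at 62.4 in marginal zone and 72.7 in follicular cells, a log2 ratio of -0.22. Klf13, known in T cells as an activator of the chemokine gene Ccl5, was at 179.8 in marginal zone and 225.7 in follicular cells, a ratio of -0.33. A second Klf13 probe set was at 102.5 in marginal zone and 96.7 in follicular cells, a ratio of 0.08, and the third was below the floor on both arrays. Neither gene approached 2-fold.

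Across the family, 6 of the 8 genes had a brightest-probe-set ratio smaller in size than the 0.43 between probe sets of 1 gene; Klf2 and Klf7 were the others. Of the 6 genes with several measured probe sets, 4 (Klf3, Klf4, Klf9 and Klf13) had probe sets of both signs and 2 (Klf6 and Klf7) had all probe sets lower in marginal zone cells. Without Klf2 the median log2 ratio of the remaining members was -0.30, and their ratios ran from -0.48 to -0.08.

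**Figure D3:**
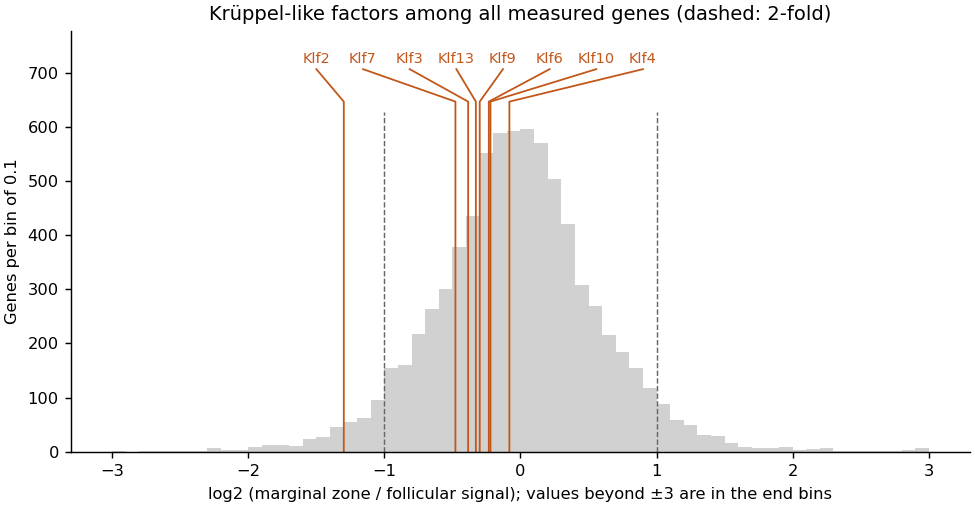
Histogram of the log2 ratio (marginal zone over follicular B cells) for the 7695 measured genes, in bins of 0.1, with a line for each KLF gene at its brightest probe set and dashed lines at 2-fold. Klf2 lies in the left tail at -1.30, and the other 7 genes lie left of the middle of the bulk.

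Of the remaining KLF genes, Klf16 lay above the floor on both arrays and the others were at or near it. Klf5 and Klf15 were below the floor on both arrays. Klf1, the erythroid factor, was at 6.0 in marginal zone and 16.5 in follicular cells, and Klf12, a CtBP-binding repressor, was at 1.6 in marginal zone and 15.5 in follicular cells. Klf16 was at 29.4 in marginal zone and 26.6 in follicular cells, and Klf17 at 15.3 in marginal zone and 12.3 in follicular cells. Klf16 was higher in marginal zone cells by less than 2-fold. Klf1 and Klf12 had a marginal zone value under the floor and Klf17 a follicular value under it, so their log2 ratios against the floor, -0.38 for Klf1, -0.29 for Klf12 and 0.28 for Klf17, give only the least size of the difference. The median log2 ratio of these 4 measured genes was -0.07. Klf8, Klf11 and Klf14 had no probe set assigned to them alone and were not analysed here.

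Sp factors, the sister family that binds GC boxes, were lower in marginal zone cells in each measured gene. Sp1, a broadly expressed activator, Sp3 and Sp4 were the 3 measured members, named here after their values were seen. Sp1 was at 384.8 in marginal zone and 696.6 in follicular cells, a log2 ratio of -0.86, and its dim second probe set was at -0.76. Sp3 was at 41.4 in marginal zone and 80.8 in follicular cells, a ratio of -0.97. Sp4 was at 84.7 in marginal zone and 161.5 in follicular cells, a ratio of -0.93, and its second probe set was at -1.18. All 5 measured probe sets of these genes were thus lower in marginal zone cells, though 0 of the 3 genes passed 2-fold by the brightest. Sp5, Sp6 and Sp7 were below the floor.

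The routes known to induce Klf2 and Klf4 were read from the same arrays: FOXO factors, which phosphoinositide 3-kinase signalling keeps out of the nucleus, and the kinase ERK5 with its MEF2 targets. Foxo1 was at 433.3 in marginal zone and 776.0 in follicular cells by the brightest probe set, a log2 ratio of -0.84. Its other measured probe sets were at 154.4 in marginal zone and 328.9 in follicular cells (-1.09) and at 41.5 in marginal zone and 178.4 in follicular cells (-2.10). Foxo3 was at 20.1 in marginal zone and 53.0 in follicular cells, a ratio of -1.40, and its second probe set was at -0.84. Both measured FOXO genes were lower in marginal zone cells by every measured probe set, 1 of them past 2-fold by the brightest, and Foxo4 was below the floor.

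Of 9 measured genes of the ERK5 and MEF2 list, 6 were lower and 3 higher in marginal zone cells, with a median log2 ratio of -0.40. That median was -0.16 under each of the 3 other probe set rules and -0.63 with the floor at the 75th percentile. Mapk7, which encodes ERK5, was the 1 gene past 2-fold and it was higher in marginal zone cells, at 35.9 in marginal zone and 11.9 in follicular cells, at least 2.84-fold relative to the floor. Mef2c is a MEF2 factor needed for B cell proliferation after receptor stimulation, named here after its values were seen. It was at 818.8 in marginal zone and 1433 in follicular cells, a ratio of -0.81. Its 5 probe sets ran from -1.14 to -0.61, but they have 1 listed source sequence and are not independent readings. Mef2a, also named after its values were seen, was at 65.2 in marginal zone and 114.6 in follicular cells, with 4 measured probe sets from -0.81 to -0.46. Mef2d, likewise named, was at 321.1 in marginal zone and 495.7 in follicular cells (-0.63). Its dimmer probe set was at 20.1 in marginal zone and 9.5 in follicular cells, at least 1.59-fold higher. Mef2b was near the floor, at 11.2 in marginal zone and 14.1 in follicular cells.

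Genes reported to depend on Klf2 in mouse lymphocytes were lower in marginal zone cells together with Klf2. Of 5 listed genes, 4 were measured, all 4 were lower and 2 were past 2-fold, with a median log2 ratio of -0.95. Over all measured genes 52.2% were lower and 4.86% were at least 2-fold lower. The lymphocyte egress receptor S1pr1 was at 84.3 in marginal zone and 132.4 in follicular cells, a ratio of -0.65, and its relative S1pr4 at 33.7 in marginal zone and 80.5 in follicular cells, a ratio of -1.26. The gut-homing integrin chain Itgb7 was at 27.2 in marginal zone and 73.1 in follicular cells, a ratio of -1.42. Cdkn1a, the cell cycle inhibitor p21, was at 43.2 in marginal zone and 58.1 in follicular cells, a ratio of -0.43. Of these, Itgb7 and S1pr4 were already known to differ on these arrays when the list was drawn up, so the list is a description and not independent support.

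Of 8 measured genes for corepressors of the family, 7 were lower and 1 higher in marginal zone cells, with a median log2 ratio of -0.08 (-0.09 to -0.02 over the other settings), and 0 reached 2-fold. Sap30, a subunit of the Sin3 complex named after its values were seen, was at 24.6 in marginal zone and 47.1 in follicular cells, a ratio of -0.93. Ctbp1, the partner of Klf3 (singled out with its values known), was at 348.3 in marginal zone and 370.3 in follicular cells, a ratio of -0.09. Sin3a, the partner of the Klf9 branch and likewise chosen, was at 33.8 in marginal zone and 66.6 in follicular cells, a ratio of -0.98, with its other probe sets at -0.29 and -1.20. Its relative Sin3b, of the same list and also named with its values known, was brighter and nearly equal. Sin3b was at 561.7 in marginal zone and 572.8 in follicular cells (-0.03), with other measured probe sets at 0.04 and 0.18. Among the acetyltransferase coactivators, Crebbp was at 96.2 in marginal zone and 145.5 in follicular cells (-0.60). Kat2b was at 69.4 in marginal zone and 112.2 in follicular cells (-0.69). Kat2a was at 34.6 in marginal zone and 32.7 in follicular cells (0.08). The second measured probe set of Kat2a went the other way, at 18.8 in marginal zone and 22.5 in follicular cells (-0.26).

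Ubiquitin ligases reported to act on KLF proteins were lower in marginal zone cells in 4 of 4 measured genes, against 52.2% of all measured genes. The median log2 ratio of the ligases was -0.62, and -1.005 with the floor at the 25th percentile or with none. Siah1a was at 87.2 in marginal zone and 140.1 in follicular cells (-0.68), and Fbxw7 at 81.3 in marginal zone and 120.0 in follicular cells (-0.56). Wwp1, a ligase of Klf2, was at 9.3 in marginal zone and 23.3 in follicular cells, at least 1.84-fold lower. Vhl was at 2.7 in marginal zone and 18.4 in follicular cells, at least 1.45-fold lower. Both folds are lower bounds because the marginal zone value lay under the floor.

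Of 13 measured quiescence and G1 genes, 8 were lower and 5 higher in marginal zone cells, with a median log2 ratio of -0.43. Cdkn2d, an inhibitor of G1 kinases, was at 11.2 in marginal zone and 29.5 in follicular cells, at least 2.33-fold lower. Myc, a driver of cell growth that Klf2 is known to repress in T cells, was at 196.8 in marginal zone and 78.6 in follicular cells, 2.50-fold higher. These were the 2 genes of the list past 2-fold by the brightest probe set, 1 in each direction. Dimmer probe sets of Btg2 and Ccnd2, named after their values were seen, also passed it. Btg2 was at -0.83 by the brightest and at 66.0 in marginal zone and 224.6 in follicular cells (-1.77) by the dimmer. Ccnd2 was at 0.36 by the brightest and at 51.6 in marginal zone and 20.3 in follicular cells (1.34) by the dimmest measured.

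The TGF-beta pathway, whose signal induces Klf10, had 12 measured genes, of which 4 were at least 2-fold lower in marginal zone cells, against 4.86% of all measured genes, and 0 at least 2-fold higher. In all, 9 were lower and 3 higher, with a median log2 ratio of -0.66, and of -0.35 by the dimmest measured probe sets. The 3 higher genes were Tgfb3, at 23.3 in marginal zone and 16.1 in follicular cells (0.53), Tgfbr1, at 206.4 in marginal zone and 149.2 in follicular cells (0.47), and Smad3 near the floor (0.19). Smad7, the inhibitory Smad that TGF-beta itself induces, was at 36.3 in marginal zone and 120.0 in follicular cells, a ratio of -1.72. Skil and Ski, repressors of Smad complexes, were at 484.1 in marginal zone and 1114 in follicular cells (-1.20) and at 29.7 in marginal zone and 63.6 in follicular cells (-1.10). The ligand gene Tgfb1 was at 12.4 in marginal zone and 34.0 in follicular cells, at least 2.68-fold lower. Klf10, at -0.22, was nearer to 0 than all 4.

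**Figure D4:**
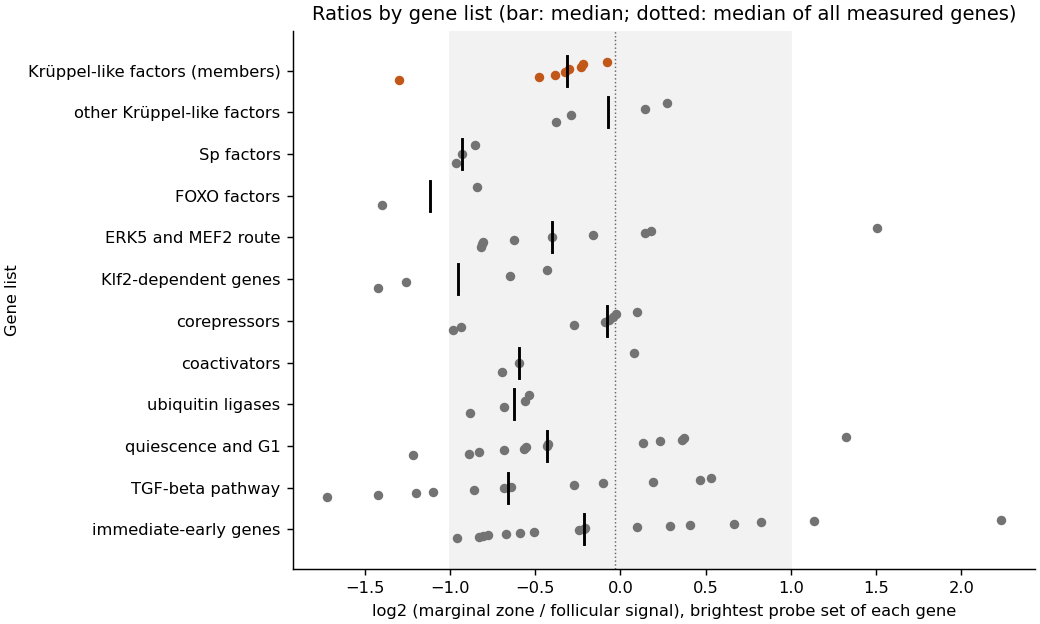
Log2 ratio (marginal zone over follicular B cells) of each measured gene (points, brightest probe set) in 12 gene lists, with the list median as a black bar, the median of all measured genes as a dotted line and the range within 2-fold in grey. The 8 KLF genes (top, orange) lie left of 0 with Klf2 apart at -1.30, and the Sp, FOXO and Klf2-dependent genes all lie left of 0.

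Several KLF genes are early-response genes that cell handling can induce, so the immediate-early genes were read beside them. Of 17 measured, 10 were lower and 7 higher in marginal zone cells, with a median log2 ratio of -0.21. The stress factor Atf3 was at 246.9 in marginal zone and 52.5 in follicular cells, 4.70-fold higher, and Fosl1 at 27.8 in marginal zone and 1.2 in follicular cells, at least 2.20-fold higher. A second Fosl1 probe set was below the floor on both arrays. Fosl2, named after its values were seen, was at 1.4 in marginal zone and 21.7 in follicular cells, at least 1.71-fold lower. Brighter genes, also named with their values known, differed in both directions. Junb was at 56.6 in marginal zone and 110.0 in follicular cells (-0.96), and Ier2 at 213.6 in marginal zone and 373.2 in follicular cells (-0.81). Jun was higher, at 205.8 in marginal zone and 116.2 in follicular cells (0.82). The part of cell handling in the KLF values was not tested.

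KLF genes are also expressed in macrophages and endothelium, so markers of other cell types were read too. Macrophage markers summed to a signal of 198.7 in marginal zone and 104.3 in follicular cells over 13 genes with a probe set, 7 of 8 measured genes were higher in marginal zone cells with a median log2 ratio of 0.80, and C1qa, C1qc, Fcgr1, Marco and Siglec1 were below the floor. Past 2-fold were 2 of the 8, Csf1r at 42.5 in marginal zone and 17.3 in follicular cells, 2.46-fold higher, and Cd5l at 26.7 in marginal zone and 11.1 in follicular cells, at least 2.11-fold higher. Of all measured genes, 4.39% were at least 2-fold higher and 52.2% were lower. Further Csf1r probe sets were at 41.1 in marginal zone and 12.2 in follicular cells, and, near the floor, at 14.3 in marginal zone and 10.5 in follicular cells. Endothelial markers summed to 35.0 in marginal zone and 57.1 in follicular cells over 7 genes, with Pecam1, Kdr, Tek and Vwf below the floor on both arrays and 3 measured genes at 18.2 or less. T cell markers summed to 17.2 in marginal zone and 41.3 in follicular cells over 7 genes, with Cd3d, Cd3g, Cd8a, Cd8b1 and Thy1 below the floor. The 2 measured genes, Cd3e and Cd4, lay under the floor in marginal zone cells and at 17.2 or less in follicular cells. The sums of all marker lists take signals that were not raised to the floor, so they include values under it. No gene of the NK cell, dendritic cell, neutrophil, erythroid and platelet lists had, by its brightest probe set, a signal above 20.7 in marginal zone or 19.7 in follicular cells. Plasma cell markers summed to 802.0 in marginal zone and 544.8 in follicular cells over 6 genes, and of 5 measured, 4 were higher and 1 lower in marginal zone cells, with a median log2 ratio of 0.73. Most of that sum was Xbp1, which B cells also express, at 659.0 in marginal zone and 396.6 in follicular cells. The regulator gene Prdm1 was at 30.9 in marginal zone and 12.7 in follicular cells, 2.43-fold higher, and Sdc1 at 4.4 in marginal zone and 68.3 in follicular cells, at least 5.39-fold lower. Their part in the KLF values was not tested.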

How the data were processed

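Per the submitters' processing notes, the deposited intensities are MAS5 signals, linear, with 1 value for a probe set on an array; the sources used here name no version, scaling target or detection calls. Deposited values ran from 0 to 8203 for marginal zone and from 0.1 to 8521 for follicular B cells. The arrays were brought to a common 2% trimmed mean (factors 0.990 for marginal zone and 1.01 for follicular), and values under the median of both arrays were raised to it. Each gene is represented by its brightest measured probe set (mean log2 signal). Probe sets of 1 gene can share a listed source sequence, as do those of Klf4, Klf7, Mef2c and Sp1 among others. Such probe sets are not independent readings. Symbols came from the platform's annotation table: 20380 probe sets had 1 gene, 691 several and 1555 none listed, and 20351 were matched to RefSeq GRCm38.p6 by Entrez identifier. Named were all members, other measured KLF genes, pathway-list genes past 2-fold (at most 4 by size) and all genes of pathway lists of up to 6; others are marked, and marker genes are examples. Members and lists were chosen with earlier results of these data known. The planned protein comparison was not made. The number of arrays limits precision. The steps were tested on simulated data with Python 3.11.15, numpy 2.4.6 and pandas 2.3.3.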

Additional observations from a re-analysis of the deposited data

How the results depend on the processing

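The results were recomputed with 4 other scalings, 4 other treatments of low signals, 3 other rules for probe sets and 2 other thresholds. The log2 ratio of Klf2 ran from -1.33 to -1.25 over the other scalings and the pseudocount; the other floors and probe set rules could not move it, since its 1 probe set lies far above every floor. The median of the 8 genes ran from -0.53 to -0.12, and the median of all genes moved by less than 0.1. All 8 genes were lower in marginal zone cells in 9 of the 11 alternatives other than the thresholds. The scalings and low-signal treatments all keep the rule of the brightest probe set, so they could move the signs little. With the mean over probe sets, Klf3 (-0.0064) and Klf4 (-0.0015) were lower by next to nothing. With the probe set of the largest ratio 7 genes were lower, and with the dimmest measured probe set 5 were. The exceptions then rest on other probe sets: Klf3 (0.60) under the first rule, and Klf4 (0.08), Klf9 (0.20) and Klf13 (0.08) under the second. Genes at least 2-fold lower in marginal zone cells numbered 2 under both of these probe set rules, when Klf7 joined Klf2, and 0 at a 3-fold threshold. Over the 11 pathway lists together, 4 of 77 measured genes were at least 2-fold higher and 8 lower in marginal zone cells, 5.19% and 10.4%, against 4.39% and 4.86% of all genes. These counts were 7 and 13 of 88 with the floor at the 25th percentile (all genes 11.6% and 12.6%), 2 and 2 of 51 with it at the 75th (3.20% and 3.66%), and 9 and 16 of 91 with no floor (15.6% and 16.2%). With the probe set of the largest ratio they were 6 and 14 of 77, 7.79% and 18.2% (all genes 5.82% and 6.68%). At 1.5-fold they were 6 and 34, 7.79% and 44.2% (13.6% and 15.8%), and at 3-fold 1 and 1 (0.858% and 0.871%). The lists were drawn up with earlier results of these arrays known. Itgb7 and S1pr4, both among the lower genes in the main setting, were already known to differ. The gap between the lists and all genes can thus be partly built in. It is a description and not independent support. No paired analysis was possible because each group has 1 array.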
